A study of Mus musculus with 4 samples.

Results

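Complement is a cascade of plasma and cell-derived proteins that marks targets for uptake and recruits leukocytes. C1q, assembled from A, B and C chains, starts the classical pathway by binding antibody, dying cells and other surfaces, and in mice most of it is made by macrophages and dendritic cells rather than by the liver. C3 is the component on which the pathways converge, factor B (Cfb) is a protease of the alternative pathway and properdin (Cfp) stabilises the enzyme that factor B forms. Cleavage of C3 and C5 releases small peptides, the anaphylatoxins, which are sensed on myeloid cells by the receptors C3ar1 and C5ar1.

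The 8 genes described here include the C1q chains C1qa, C1qb and C1qc and the component C3. The others are the factors Cfb and Cfp and the receptors C3ar1 and C5ar1. All 8 were chosen by name, with earlier results of these data known. They were read by every probe set that the platform annotation assigns to them alone. A probe set is the group of short oligonucleotides with which an Affymetrix array reads a transcript. Probe sets were assigned to 7 of the 8 genes, 13 probe sets of the 45037 measured, and 4 of the genes had more than 1. No probe set carried the symbol C3, which was not analysed here.

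The RNA came from CD11b+ spleen cells, that is, cells bearing the integrin CD11b of neutrophils, monocytes, macrophages and some dendritic and lymphoid cells. There were 2 pools of mice under repeated social threat, labelled HighThreat, and 2 pools of control mice, labelled LowThreat. Each pool held RNA of 5 mice and was read on 1 Affymetrix MOE430 2.0 array. The labels name no genotype, strain, sex, age, duration of threat or batch. If the groups were processed apart, that and the effect of threat cannot be told apart. A pool averages its mice, so the spread between pools is not the spread between mice.

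Levels are log2 expression values as deposited, so a difference of 1 is a doubling. The array medians lay between 4.41 and 4.43, and all 13 probe sets stood above them. Pearson's r across probe sets was 0.9981 between the social threat pools, 0.9966 between the control pools and at most 0.9904 between pools of different groups. Each difference is the social threat mean minus the control mean, given with its SE from a limma fit over the whole table. A call means a Benjamini-Hochberg adjusted p under 0.05. A probe set's level depends on its own oligonucleotides, so levels were compared between pools and not between genes.

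The C1q genes fell together in the social threat pools. All 5 of their probe sets were called lower, and in each of them both social threat pools lay below both control pools, as in 28.6% of all probe sets. By its brightest probe set C1qa stood at 66.1% of the control level, C1qb at 69.4% and C1qc at 69.7%. Factor B and C5ar1 had higher values in the social threat pools, and properdin and C3ar1 lower ones, but none of these 4 genes was called on its brightest probe set. Of the 13 probe sets, 5 were called lower and 1 higher, 46.2% in all. Over the whole arrays 8.67% of probe sets were called lower and 7.09% higher, 15.8% together. Calls were more frequent among bright probe sets, and among the 15842 with a mean of at least 5.85, the lowest mean of a member, 35.6% were called, which is the nearer background. With the 7 genes each taken by its brightest probe set, 3 were called lower and 0 higher, against 11.7% lower and 9.4% higher of all 18193 genes. The 42.9% called in either direction stand beside 21.1% of all genes and 38.8% of the 8440 genes as bright as the members, so the count of called members is close to that of genes at such levels. The median difference was -0.22 over the 7 genes and -0.02 over all genes.

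**Figure D1:**
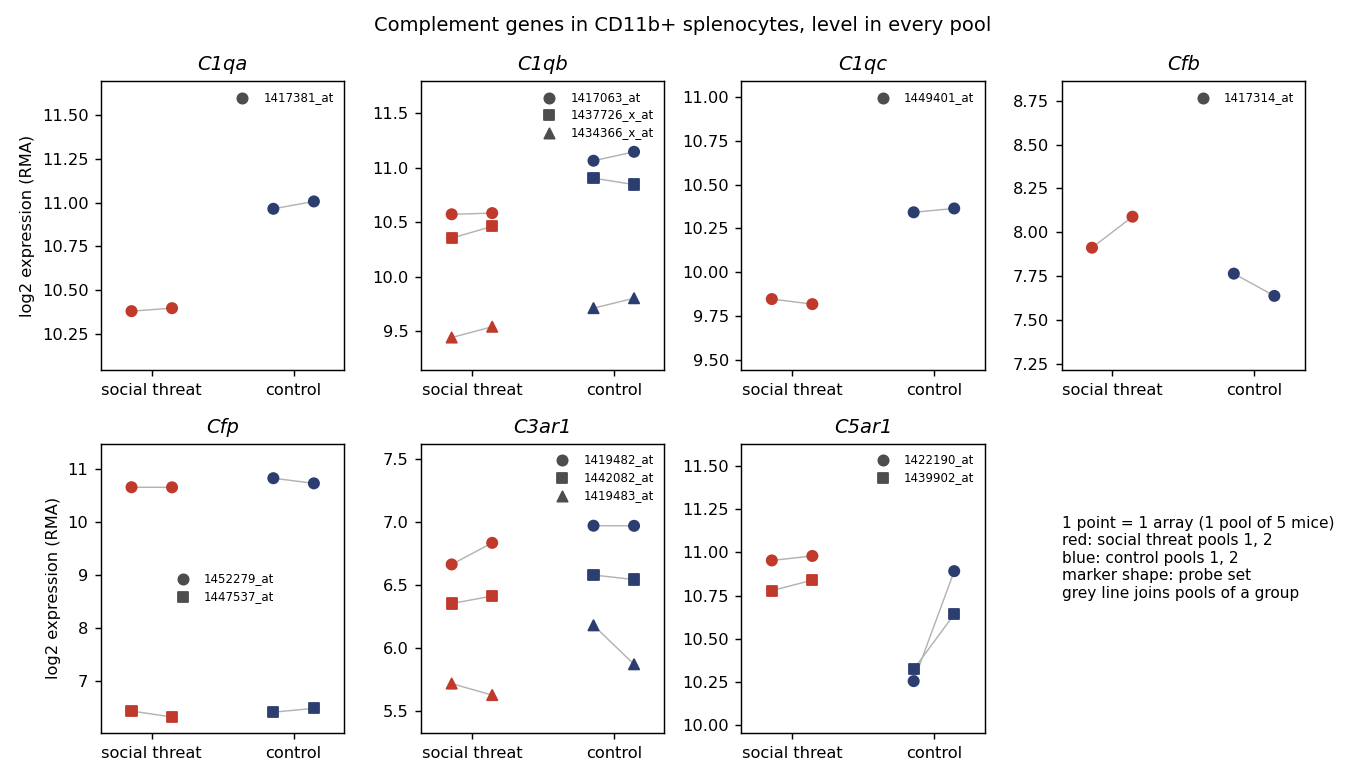
Level of each probe set (vertical axis, log2 RMA expression) in the 2 social threat pools (red) and the 2 control pools (blue) for 7 complement genes; marker shapes are probe sets, grey lines join the pools of a group, and the vertical scale differs between panels. The C1q probe sets sit lower in both social threat pools, while control pool 1 lies well below control pool 2 for both C5ar1 probe sets.

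The starts of C1qb and C1qc are shown because these genes fell together and their upstream sequences were at hand. C1qb, C1qc and C1qa follow each other directly on mouse chromosome 4 in the RefSeq annotation, with no other annotated gene between them. The 250 bases before each start are given as listed by RefSeq for GRCm38.p6, 5′ to 3′ on the minus strand, which is the strand of the genes. Capitals mark GAGGAA or its reverse complement TTCCTC, the core to which PU.1, an ETS factor of myeloid cells, can bind.
C1qb, chr4:136886201-136886450: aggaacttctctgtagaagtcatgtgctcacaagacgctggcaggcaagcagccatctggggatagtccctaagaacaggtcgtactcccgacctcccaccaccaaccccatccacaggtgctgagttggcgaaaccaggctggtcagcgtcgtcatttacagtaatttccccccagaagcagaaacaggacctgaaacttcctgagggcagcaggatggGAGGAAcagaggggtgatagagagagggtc
C1qc, chr4:136892915-136893164: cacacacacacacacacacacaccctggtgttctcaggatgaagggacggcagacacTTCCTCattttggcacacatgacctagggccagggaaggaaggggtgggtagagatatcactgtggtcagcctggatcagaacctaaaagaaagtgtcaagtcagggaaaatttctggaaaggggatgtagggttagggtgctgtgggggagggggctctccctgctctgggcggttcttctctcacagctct

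The match in C1qb began 30 bases before the start and that in C1qc 193 bases before it, on the opposite strand. Of the 8 genes, 6 had an upstream window in the table, and 2 of these windows, those shown, held GAGGAA on either strand. The same letters occurred in 23.3% of all 32851 windows of this length. The interferon-stimulated response element, searched as GAAA, any 2 bases and GAAA, was in 0 of the 6 windows and in 2.98% of all. The NF-kappaB consensus was in 1 of them, that of C1qc, and in 3.9% of all. These searches covered both strands, and a match describes letters only.

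C1qa encodes the A chain of C1q. Its probe set read 10.38 and 10.40 in the social threat pools, against 10.97 and 11.01 in the control pools. The groups were 0.57 apart at their nearest pools, while the pools within a group differed by at most 0.04. The difference was -0.60 (SE 0.04, limma adjusted p = 1.3e-05), and this was the only member probe set with both a difference of at least 1.5-fold and no overlap, which held for 5.65% of all probe sets.

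C1qb, the B chain, was read by 3 probe sets. The brightest, 1417063_at, gave 10.57 and 10.58 in the social threat pools and 11.07 and 11.15 in the control pools. It fell by 0.53 (SE 0.04, limma adjusted p = 3.62e-05). The second, 1437726_x_at, gave 10.35 and 10.46 under social threat and 10.91 and 10.85 in controls, a fall of 0.47 (SE 0.05, limma adjusted p = 0.000192).

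The third C1qb probe set, 1434366_x_at, gave a smaller difference. It read 9.44 and 9.54 in the social threat pools and 9.71 and 9.80 in the control pools, -0.27 (SE 0.06, limma adjusted p = 0.0154). Its call was lost without the variance trend (adjusted p = 0.122), without social threat pool 1 (adjusted p = 0.229) and without social threat pool 2 (adjusted p = 0.0789). The suffix x marks probe sets whose oligonucleotides may also match other transcripts, and it is carried by both of the dimmer C1qb probe sets.

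C1qc encodes the C chain. It read 9.85 and 9.82 under social threat and 10.34 and 10.36 in controls. The difference was -0.52 (SE 0.05, limma adjusted p = 7.02e-05), again larger than the spread between the pools of either group.

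The chains moved alike. Their mean level was 10.27 in each social threat pool, against 10.79 and 10.84 in the control pools. Within arrays, the log2 distance from C1qb to C1qc was 0.73 and 0.77 in the social threat pools and 0.72 and 0.78 in the control pools, and the groups overlapped. The distance of C1qa from C1qb was -0.19 in both social threat pools and -0.10 and -0.14 in the control pools, so C1qa was lower relative to C1qb under social threat by 0.07, a shift that was not tested.

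Factor B, the protease that joins cleaved C3 in the alternative pathway enzyme, had 1 probe set. Cfb read 7.91 and 8.09 in the social threat pools and 7.76 and 7.64 in the control pools. Both social threat pools were higher, as in 24.1% of all probe sets; the groups did not overlap for 52.7% when either direction is counted. The difference was 0.30 (SE 0.09, 95% interval 0.09 to 0.51), and its limma adjusted p of 0.0571 missed the threshold. It stood near that threshold under other settings, with adjusted p-values from 0.0251 to 0.486 over 12 alternatives and a call in 7 of them. Without control pool 1 it was called (0.36, adjusted p = 0.0292), while without social threat pool 2 it was 0.21 (adjusted p = 0.486).

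Properdin, the only known positive regulator of the alternative pathway and a product of neutrophils and other leukocytes, had slightly lower values under social threat and was not called. Its bright probe set read 10.66 and 10.65 under social threat and 10.83 and 10.73 in controls, a difference of -0.12 (SE 0.05, limma adjusted p = 0.117). The dim Cfp probe set, 1447537_at, read 6.44 and 6.32 under social threat and 6.42 and 6.49 in controls, the only 1 of the 13 whose groups overlapped. Of all probe sets, 52.7% had groups that did not overlap. The 95% interval of the bright probe set ran from -0.23 to -0.02, so a fall of the size seen for C1q lay outside it. Without control pool 2 that probe set was called (-0.17, adjusted p = 0.0164).

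**Figure D2:**
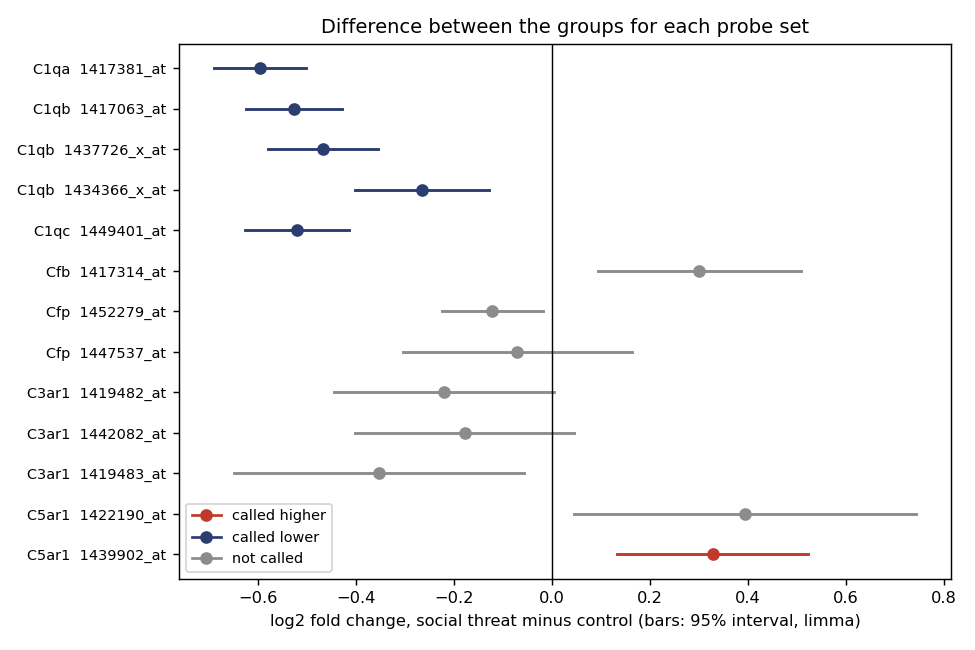
Log2 fold change, social threat minus control (horizontal axis), of the 13 probe sets, with 95% intervals from limma that are not adjusted for the number of probe sets; red was called higher, blue lower and grey not called. The 5 C1q probe sets lie between -0.60 and -0.27, the 3 of C3ar1 between -0.35 and -0.18 and the 2 of C5ar1 at 0.33 and 0.39.

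C3ar1, the receptor for the C3-derived anaphylatoxin, was read by 3 probe sets and none was called. The brightest read 6.66 and 6.84 in the social threat pools and 6.97 in both control pools, a difference of -0.22 (SE 0.10, limma adjusted p = 0.2). The others gave -0.18 (SE 0.10, adjusted p = 0.307) and -0.35 (SE 0.13, adjusted p = 0.115). In all 3 the social threat pools lay below the control pools, as in 28.6% of all probe sets, and the 3 are readings of 1 gene. As the mean of its probe sets C3ar1 was called, at -0.25 (SE 0.075, adjusted p = 0.0452), and 1419483_at alone was called without control pool 2 (-0.51, adjusted p = 0.0177).

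C5ar1, the receptor for the C5-derived anaphylatoxin and abundant on neutrophils and monocytes, had 2 bright probe sets. The brighter, 1422190_at, read 10.95 and 10.98 under social threat, against 10.26 and 10.89 in controls. The other, 1439902_at, read 10.78 and 10.84 under social threat, against 10.32 and 10.64 in controls. Both placed control pool 1 far below the other 3 pools.

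For the brighter probe set the difference was 0.39 (SE 0.15, limma adjusted p = 0.135). The other rose by 0.33 (SE 0.09, limma adjusted p = 0.0304). The size rests on control pool 1: without it the brighter probe set differed by 0.08 (adjusted p = 0.264) and the other by 0.17 (adjusted p = 0.0314), and without control pool 2 they differed by 0.71 (adjusted p = 8.71e-06) and 0.49 (adjusted p = 0.000125). The call of 1439902_at was also lost without either social threat pool (adjusted p = 0.129 and 0.22), without the variance trend (0.17) and with a robust prior (0.0744).

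The gap of 0.64 between the control pools at 1422190_at was unusual. Of 2294 probe sets with a mean of at least 10, only 8 had a gap that large. Itgam, which encodes CD11b itself, showed a gap of 0.54 in the same direction, with 11.64 and 11.59 in the social threat pools and 10.47 and 11.01 in the control pools. Itgam rose by 0.88 (SE 0.13, limma adjusted p = 0.0015), and by 0.61 without control pool 1. Whether the gap of C5ar1 and that of Itgam are related was not tested. Within arrays C5ar1 stood lower relative to Itgam under social threat, at -0.69 and -0.61, against -0.21 and -0.12 in controls.

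Genes with the most similar profile were sought among 7514 other genes whose brightest probe set lay at least 2 above the median. Likeness was the root mean square difference between profiles over the 4 arrays, each profile centred on its own mean. Nearest to the mean C1q profile were Nop53 (0.013), Rnase6 (0.014), C6 (0.015), Ifit3 (0.016) and Ptpro (0.016). Each was called lower, which the choice by profile largely fixed. Among them C6 is itself a complement gene. The nearest were Lzic and Igkv6-14 for Cfb, Tmem248 and Pnkd for Cfp, and Ddx49 and P2ry10b for C3ar1. For C5ar1 they were Srpk2 (0.040) and Csf2ra (0.069), a receptor chain for the growth factor GM-CSF, with a low value in control pool 1 for each (7.81 against 8.34 in control pool 2 for Srpk2). With only 4 arrays many genes share such a profile, and likeness here says no more than that.

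Other genes of complement were read through a list of 49, of which 39 had a probe set of their own. Of these 39, 4 were called higher, 4 lower and 31 not called, with a median difference of 0.01. That is 20.5% called, near the 21.1% of all 18193 genes. For 20 of the 39 the mean lay below 4.42, the median of all values, in both groups, where a difference is hard to detect. The 10 without a probe set of their own included C4b, Cfd and C5ar2, which were not analysed here.

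The ficolins moved in opposite directions. Ficolins are lectins that start the lectin pathway, and in mice ficolin A (Fcna) is made by macrophages of liver and spleen while ficolin B (Fcnb) is made by bone marrow myeloid cells. Fcna read 9.94 in both social threat pools and 11.00 and 10.97 in the control pools, a fall of 1.05 (SE 0.04, limma adjusted p = 5.72e-07). Fcnb read 10.20 and 10.19 under social threat and 8.03 and 8.0 in controls, a rise of 2.18 (SE 0.06, limma adjusted p = 6.35e-08), or 4.53-fold. Within arrays the distance of Fcnb from Fcna moved by 3.23. The mean of the C1q genes fell less than Fcna, by 0.55, and its distance from Fcna was 0.33 in both social threat pools, against -0.21 and -0.13 in controls. The other 7 measured lectin pathway genes, among them the mannose-binding lectins and their proteases, were not called. All 7 had control means below the median of the control values, where a difference is hard to detect.

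No classical pathway protease or component on the list was called, with C1ra, C1s1 and C2 measured. C1s1 was dim, with means of 2.96 under social threat and 2.79 in controls, where a difference is hard to detect. C2, the protease partner of C4 and a relative of factor B, was read by its brightest probe set at 6.15 and 6.16 under social threat. In controls that probe set read 6.55 and 6.26, a difference of -0.25 (SE 0.12, limma adjusted p = 0.235). Its dimmer probe sets were not called either. They gave -0.145 (SE 0.10, limma adjusted p = 0.44) and -0.208 (SE 0.12, limma adjusted p = 0.328).

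Of 6 terminal components 1 was called in each direction. C6, part of the membrane attack complex, fell by 0.53 (SE 0.08, limma adjusted p = 0.00178), with 7.23 and 7.25 under social threat and 7.76 and 7.79 in controls. Hc, the mouse gene for C5, rose by 1.42 (SE 0.16, limma adjusted p = 0.000308), with 5.04 and 4.95 under social threat and 3.33 and 3.81 in controls. In controls it was dimmer than the median probe set, where background can set a level and thereby the size of the rise.

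None of the 13 measured regulators was called on its brightest probe set. Cr1l, the membrane regulator Crry that limits C3 deposition on mouse cells, read 10.16 and 10.12 under social threat and 10.11 and 10.15 in controls. The difference was 0.01, with a 95% interval from -0.10 to 0.12. Its dimmer probe set 1430131_at read 6.0 and 5.73 under social threat and 5.44 and 5.49 in controls. That difference was 0.405 (SE 0.13, 95% interval 0.12 to 0.69, limma adjusted p = 0.0634) and was not called. The dimmest, 1438920_x_at, differed by 0.04 (SE 0.09). A dimmer probe set was called higher for Clu, encoding clusterin (0.28, SE 0.08, adjusted p = 0.0421), and for Cd59a, an inhibitor of the membrane attack complex (0.43, SE 0.12, adjusted p = 0.0469). Neither gene was called on its brightest probe set, where the differences were 0.18 and 0.36.

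Among 8 measured receptors 2 rose and 2 fell on their brightest probe set. For the receptor Calr the brightest probe set was not called (0.02), nor was 1456170_x_at (0.06). Its dimmest, 1433806_x_at, was called higher (0.21, SE 0.06, limma adjusted p = 0.04). Itgam and Itgb2 encode the chains of complement receptor 3, and Itgb2 rose by 0.22 (SE 0.03, limma adjusted p = 0.000456), with 12.66 in both social threat pools and 12.41 and 12.46 in controls. That call was lost without the variance trend (adjusted p = 0.147), and that of Itgam with a robust prior (adjusted p = 0.163). Itgax, the alpha chain of complement receptor 4 and the CD11c of dendritic cells, fell by 0.89 (SE 0.05, limma adjusted p = 4.92e-06), with 9.75 and 9.64 under social threat and 10.57 and 10.60 in controls. Cr2, the B cell receptor for C3 fragments, fell by 0.79 (SE 0.08, limma adjusted p = 0.00012), with 7.38 and 7.37 under social threat and 8.15 and 8.17 in controls. Of 10 measured B cell markers, Cr2 among them, 8 fell and 1 rose (median -0.80), and their summed level, in which the antibody gene Ighm weighs most, was 13.58 and 13.56 under social threat and 13.42 and 13.46 in controls. The part of the B cell shift in the fall of Cr2 was not tested. Vsig4, a macrophage receptor for C3b, overlapped between the groups at 4.82 and 4.39 under social threat and 3.81 and 4.59 in controls.

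**Figure D3:**
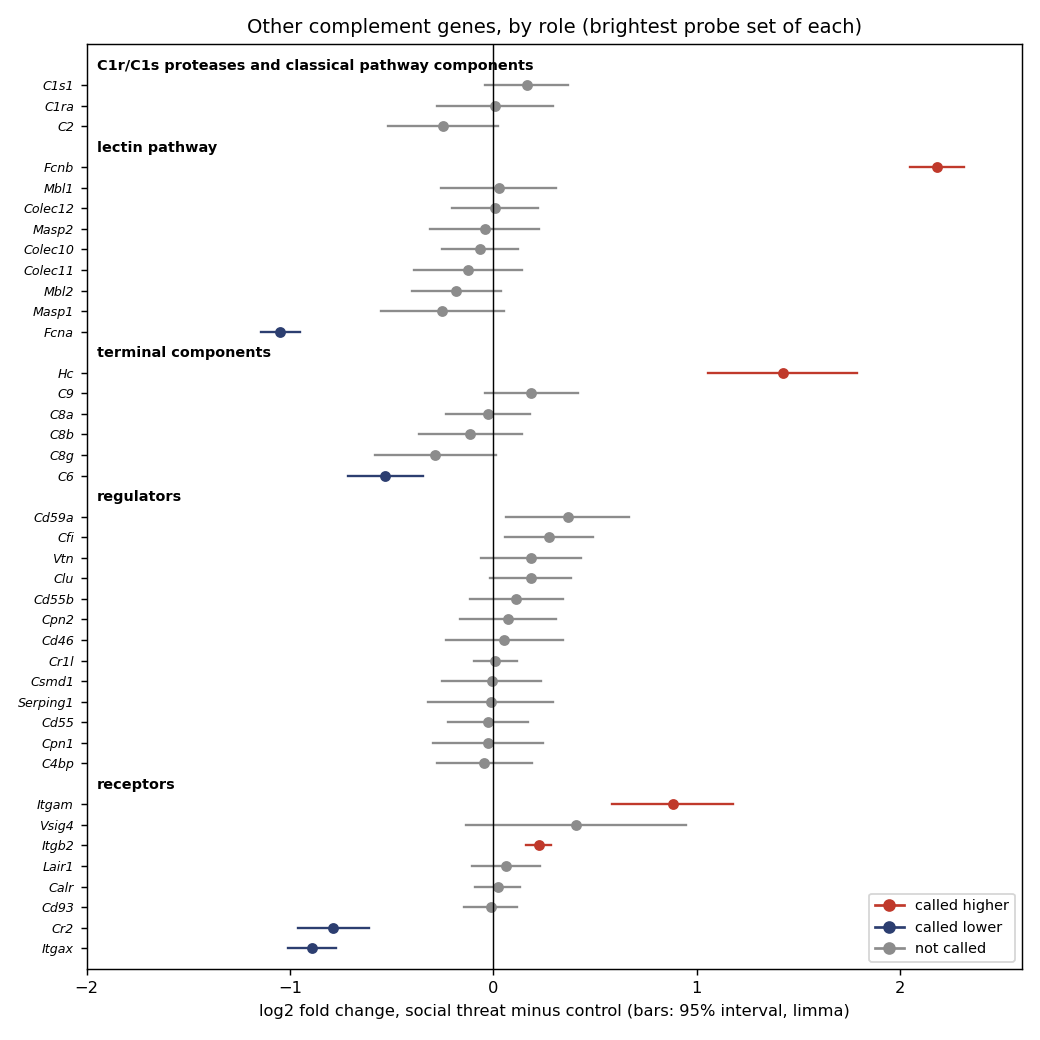
Log2 fold change, social threat minus control (horizontal axis), of 39 other complement genes by their brightest probe set, grouped by role, with unadjusted 95% intervals; red was called higher, blue lower and grey not called. Fcnb at 2.18 and Fcna at -1.05 are the extremes, and none of the regulators was called.

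Markers of the cells that make C1q also differed between the groups. In bulk RNA, fewer cells of a type and less RNA per cell cannot be told apart. Of all genes, 11.7% were called lower and 9.4% higher, the shares to set beside the counts of every marker list. Of the 8440 genes as bright as the members, 38.8% were called in either direction. Of 16 macrophage markers 10 were called lower and 2 higher, with a median of -0.37. The log2 of their summed level was 14.43 and 14.45 in the social threat pools and 14.75 and 14.76 in the control pools, and no gene of the list had a control mean below the median of the control values. Axl, a receptor for dying cells, fell by 1.19 (SE 0.06) on its brightest probe set, while its other probe set was not called. Hpgd, a prostaglandin-degrading enzyme, fell by 0.92 (SE 0.05). Marco, the scavenger receptor of marginal zone macrophages, rose by 1.85 (SE 0.06), so the list did not move as 1 block. Within arrays the C1q mean stood 0.80 above the mean of this list in both social threat pools, against 1.11 and 1.10 in the control pools, a shift of -0.31. The 2 genes of the list called higher were Marco and Cd5l. Against the mean of the other 14, left after values were seen, the shift was -0.10. The C1q mean then stood 0.91 above that mean in both social threat pools and 1.03 and 1.01 above it in the control pools. Leaving out genes because they rose makes the shift less negative whatever C1q does, so no conclusion is drawn from the smaller value.

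Conventional dendritic cell markers, from the other cells that make C1q, fell for 10 of 11 genes with a median of -1.12. Their summed level was 12.70 and 12.67 under social threat and 13.60 and 13.58 in controls, with the control mean of 1 of the 11 below that median. Patrolling monocyte markers fell for 8 of 10 (median -0.57). All 10 neutrophil precursor granule genes rose (median 1.47), with a summed level of 16.22 and 16.23 under social threat and 15.31 and 15.29 in controls. Mature neutrophil genes rose for 6 and fell for 4 of 11 (median 0.16), with summed levels of 16.22 in each social threat pool and 16.07 in each control pool. Classical monocyte markers rose for 2 and fell for 3 of 8 (median -0.07), with summed levels of 14.48 in each social threat pool and 14.61 and 14.55 in the control pools. Eosinophil markers fell for 2 of 5 and rose for 0, and stromal and endothelial markers rose for 1 and fell for 2 of 9. T cell markers fell for 8 of 8 genes and NK cell markers for 5 of 8, while erythroid markers rose for 7 of 9 and platelet markers for 5 of 6. The part of these shifts in the differences of C1q, the ficolins, Cfb and C5ar1 was not tested.

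**Figure D4:**
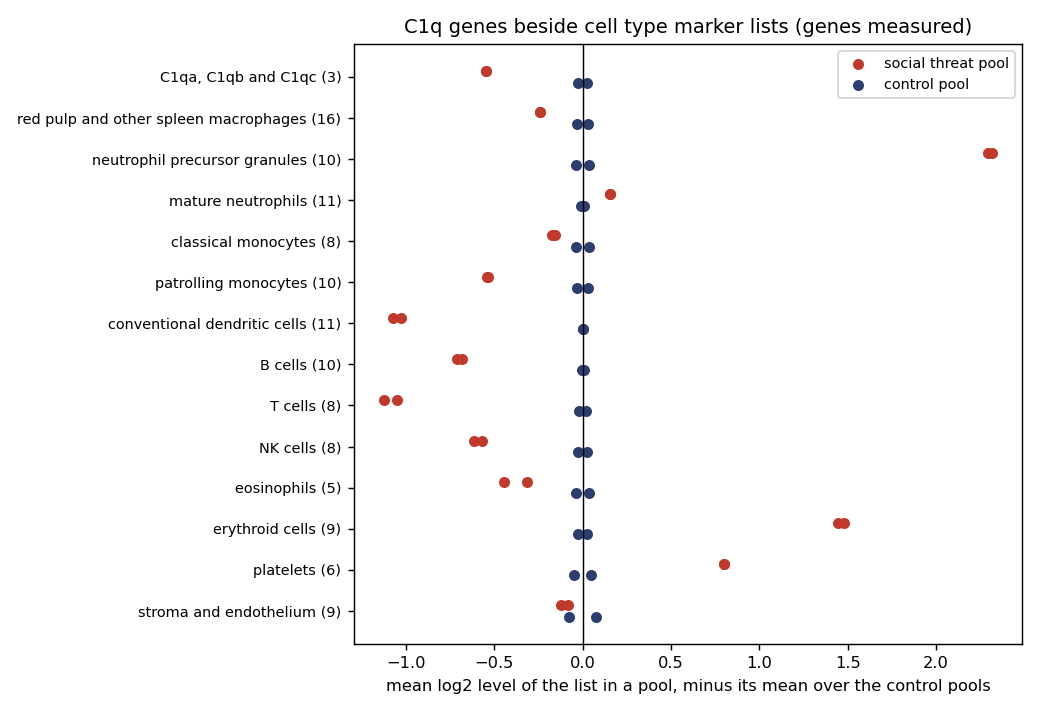
Mean log2 level of the 3 C1q genes and of 13 cell type marker lists in each pool, minus its mean over the control pools (horizontal axis), with social threat pools in red and control pools in blue and the number of genes measured in brackets. The C1q genes shift by -0.55 under social threat. The lists of macrophages, classical and patrolling monocytes, dendritic cells, B, T and NK cells, eosinophils and stroma also shift down. Those of neutrophil precursors, mature neutrophils, erythroid cells and platelets shift up.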

How the data were processed

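The authors deposited 1 log2 value per probe set and array, and the submitters' processing notes name RMA without a version. RMA corrects background, brings arrays to a common distribution and summarises probes. It gives no detection calls and shrinks differences of dim probe sets. Values ran from 2.26 to 14.25. The number of arrays limits the precision. Gene names came from the platform annotation, in which 34945 probe sets had 1 gene symbol, 932 had several and named no gene, and 9160 did not appear. Groups and pool numbers came from the sample titles.

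Social threat minus control was fitted in R 4.3.3 with limma 3.58.1 (lmFit, then eBayes with a mean-variance trend) over all 45037 probe sets, with 2 residual and 7.1 prior degrees of freedom. All tests were two-sided, with Benjamini-Hochberg adjustment over all probe sets and a threshold of 0.05. An exact permutation test of 2 pools against 2 cannot go below p = 0.333 and was not used. The code was tested on simulated data. Each gene was read by its brightest probe set (highest mean over the 4 arrays). Named genes were the 8 members and called genes of the complement lists with a few fixed ones. Up to 3 of the most changed genes of a marker list and the nearest profiles were also named. Clu, Cd59a, Calr, Cr1l, C1ra, C1s1, Ighm and Cd5l were added after their values were seen. The members and lists were chosen with earlier results of these data known. The alternatives were 13 other settings.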

Additional observations from a re-analysis of the deposited data

How the results depend on the processing

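The falls of C1qa, C1qb and C1qc were called under each of 12 alternatives, with differences between -0.62 and -0.42 and adjusted p-values of at most 0.0131. The 3 genes called lower became 1, C1qa, by the rule of at least 1.5-fold without overlap. The count of genes called higher, 0 at first (Cfb had an unadjusted p of 0.00945 and C5ar1 of 0.0308), was 1 with a robust prior, quantile normalization, dim probe sets left out, only probe sets with 1 gene symbol, or genes as the mean of their probe sets, and 0 to 1 when 1 pool was left out; that gene was Cfb except without control pool 2, where it was C5ar1. Over all probe sets, the 7099 calls became 4689 without the variance trend, 2543 by the 1.5-fold rule, and 3171 to 8721 when 1 pool was left out, with 3341 without social threat pool 1 and 3171 without social threat pool 2, where the lone pool is assumed to vary like the others. No difference of a member changed sign. The pool numbers were not taken as a pairing in the main fit. Deviations of same-numbered pools correlated at 0.05 across probe sets, over only 2 pairs, which cannot decide whether such pools were paired. With pool number as a replicate block, 2 member genes were called higher, Cfb (adjusted p = 0.0423) and C5ar1 (adjusted p = 0.0177), and 8168 probe sets in all. The cause of these shifts was not tested. With 2 arrays per group and no detection calls, the differences of Cfp (-0.12, SE 0.05) and C3ar1 (-0.22, SE 0.10) lie at the limit of what their probe sets resolve. Size alone does not set that limit, since the brighter Itgb2 was called in the main fit at 0.22 (SE 0.03).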
